A study of Homo sapiens with 15 samples.

Results

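The integrin subunits that bind collagens and laminins were examined in MG-63 cells on an amine-rich coating and on bare titanium. These are the collagen-binding α subunits ITGA1, ITGA2, ITGA10 and ITGA11, the laminin-binding α subunits ITGA3, ITGA6 and ITGA7, and the β subunits ITGB1 and ITGB4. A gene was taken as its transcript cluster, the array's unit for the probes of 1 gene, where that was annotated to this symbol alone. Of the 9 genes, 8 were measured, each by 1 of the 21448 transcript clusters of the arrays. The transcript clusters were TC0500007368.hg.1 (ITGA2), TC0100015594.hg.1 (ITGA10), TC1500009861.hg.1 (ITGA11), TC1700008228.hg.1 (ITGA3), TC0200009973.hg.1 (ITGA6), TC1200010865.hg.1 (ITGA7), TC1000010265.hg.1 (ITGB1) and TC1700008920.hg.1 (ITGB4). ITGA1 was not analysed here.

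Integrins are receptors in the cell membrane that are made of 1 α and 1 β subunit and tie the extracellular matrix to the actin cytoskeleton. The α subunit sets the ligand: ITGA1, ITGA2, ITGA10 and ITGA11 carry an inserted domain that grips collagen, while ITGA3, ITGA6 and ITGA7 recognise laminins of basement membranes. All of these α subunits pair with ITGB1, and ITGA6 also pairs with ITGB4, which anchors keratin filaments at the hemidesmosomes of epithelia. In bone, osteoblasts meet a matrix that consists mostly of type I collagen, and collagen-binding integrins are known as one of their ways of holding on to it.

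MG-63 is an established cell line from a human osteosarcoma that keeps some traits of osteoblasts. All groups were cultured in DMEM with 10% FCS, on titanium chips that were either left uncoated (Ti-Ref) or coated with TMS-PEI, a poly(ethyleneimine) carrying trimethoxysilylpropyl groups (Ti-TMS-PEI). After 4 h there were 4 arrays for each surface, and after 24 h there were 4 arrays for Ti-TMS-PEI and 3 for Ti-Ref, lettered A to D. Cells that had not attached to the titanium were left behind in the old wells and are not part of the RNA. The methods speak of independent experiments and also of technical replicate groups, so p-values measure the spread between these arrays, which may in part be technical. Array medians on the log2 scale differed slightly between the surfaces. At 4 h they were 5.79 to 5.83 on Ti-TMS-PEI and 5.84 to 5.86 on Ti-Ref. At 24 h they were 6.77 to 6.79 on Ti-TMS-PEI and 6.71 to 6.74 on Ti-Ref. The times may have been normalized apart, which the methods do not say, and levels were compared only within a time.

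Mesenchymal genes were well above background in every group, as a check of the labelled cell type. Means of VIM and SPARC, an intermediate filament and a bone matrix protein, were between 15.54 and 16.99. As a gauge of background, 348 olfactory receptor genes had a median of 3.16 at 4 h and 3.63 at 24 h, with a 95th percentile of 4.43 and 5.17. This percentile is called the background level from here on. RUNX2, a transcription factor of osteoblasts, was above it at both times, with means from 5.87 to 6.32. ALPL, the alkaline phosphatase of mineralizing cells, was under it at 4 h (3.89 on Ti-TMS-PEI against 3.92 on Ti-Ref) and above it at 24 h (6.13 and 6.06).

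The promoters of the 3 genes with a coating effect at 24 h are shown because they share that response, so that their sequence can be set side by side. Each is the 250 bases upstream of a RefSeq gene start (GRCh38.p14), written 5′ to 3′ on the strand of the gene, at chr5:52989102-52989351 on the plus strand for ITGA2, at chr1:145910051-145910300 on the minus strand for ITGA10 and at chr15:68432164-68432413 on the minus strand for ITGA11. Capitals mark the GC box, GGGCGG on either strand, the letters bound by SP1.
ITGA2: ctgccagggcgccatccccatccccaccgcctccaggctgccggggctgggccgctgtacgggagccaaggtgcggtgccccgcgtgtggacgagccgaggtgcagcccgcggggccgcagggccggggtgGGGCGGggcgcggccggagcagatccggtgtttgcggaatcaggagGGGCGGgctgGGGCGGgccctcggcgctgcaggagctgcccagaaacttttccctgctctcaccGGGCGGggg
ITGA10: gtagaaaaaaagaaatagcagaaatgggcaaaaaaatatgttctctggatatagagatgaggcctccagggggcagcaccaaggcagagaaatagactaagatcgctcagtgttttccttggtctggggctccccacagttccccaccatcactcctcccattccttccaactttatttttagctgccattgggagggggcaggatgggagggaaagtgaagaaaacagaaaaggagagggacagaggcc
ITGA11: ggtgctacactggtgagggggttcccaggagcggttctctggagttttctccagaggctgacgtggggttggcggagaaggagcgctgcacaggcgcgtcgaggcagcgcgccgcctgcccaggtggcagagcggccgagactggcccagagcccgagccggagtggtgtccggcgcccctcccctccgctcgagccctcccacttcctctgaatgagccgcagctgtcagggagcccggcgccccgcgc
The window of ITGA2 had 76.4% G and C and held 4 GC boxes, whose first bases lay 119, 73, 63 and 9 bases before the start. That of ITGA11 had 71.2% G and C and that of ITGA10 48.4%, and neither held a GC box. The letters of an AP-1 motif (TGANTCA) and of a cAMP response element (TGACGTCA) occurred in none of the 3 windows on either strand. Among all 35116 promoter windows of this length, 42.6% held a GC box, 6.57% an AP-1 motif and 1.65% a cAMP response element, with a median of 58% G and C. A match of letters describes the sequence and is not a bound site. Of the 8 measured genes, 5 had a promoter in the table. ITGA6 and ITGB1 each had 2 listed starts, of which 1 held 3 GC boxes, and ITGA3, ITGA7 and ITGB4 are named only.

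After 24 h, the 3 measured collagen-binding α subunits were higher on Ti-TMS-PEI, while no laminin-binding α subunit and no β subunit passed the thresholds. ITGA2 rose 5.41-fold and ITGA11 2.06-fold (n = 4 and 3; limma adjusted p = 0.000135 and 0.00437, in this order). ITGA10 rose at least 1.85-fold by its means, a bound because its Ti-Ref arrays lay within the background. The bound was not tested, and the log2 fold change as measured was 1.62 (limma adjusted p = 0.00189). A gene was called where its fold change was over 1.5, p was under 0.05 and the Benjamini-Hochberg adjusted p over all transcript clusters was under 0.05. By this rule 3 of 8 genes were called, all of them higher, whereas 6.15% of all transcript clusters were called, 3.46% higher and 2.69% lower. The median log2 fold change was 0.41 over the 8 genes and -0.0033 over all transcript clusters. With ITGA10 at its bound, the median of the 8 genes was 0.41 as well and that of the 3 collagen-binding α subunits was 1.04 (1.62 as measured, the value of ITGA10 itself). The medians were 0.27 for the 3 laminin-binding ones and 0.21 for the 2 β subunits, of which ITGB4 was under the background level.

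**Figure D1:**
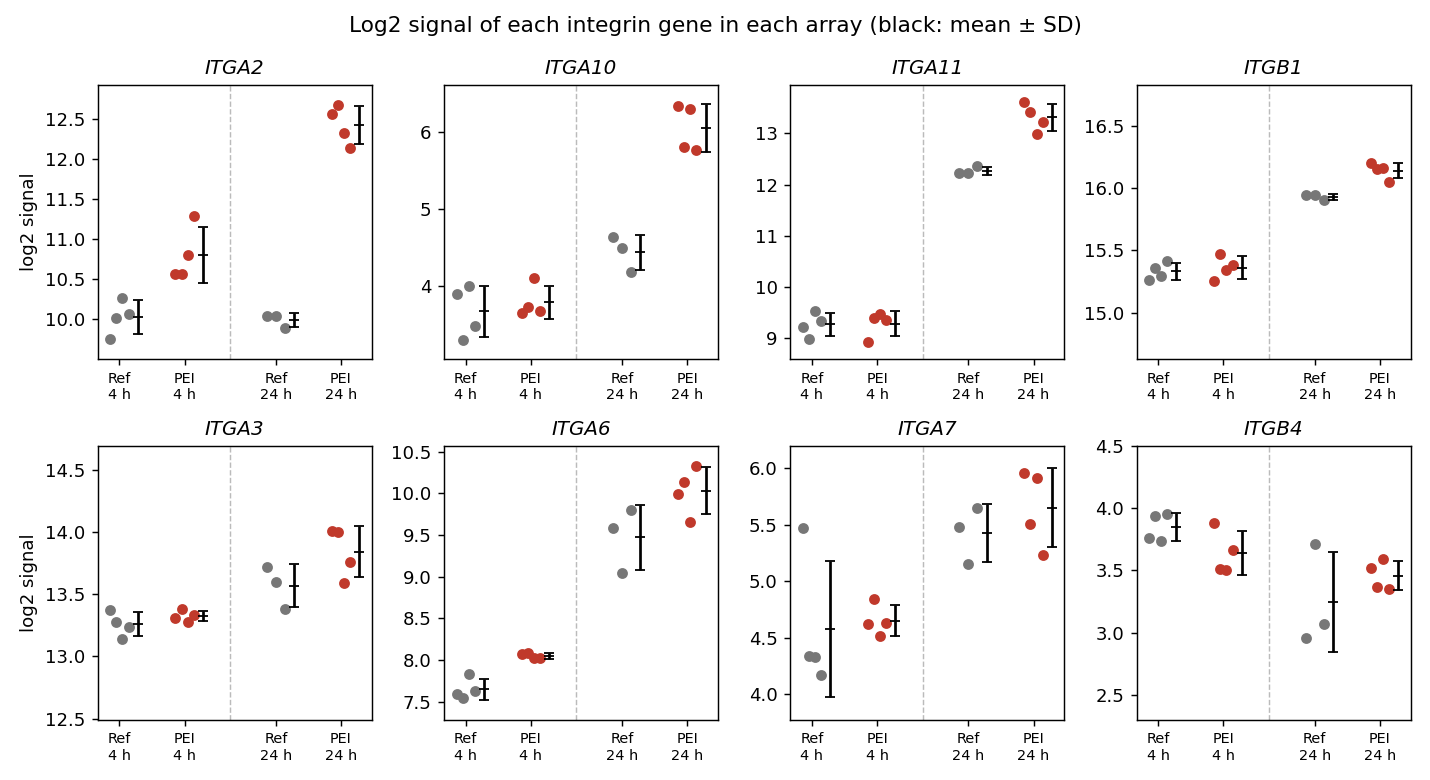
Log2 signal (vertical axis, a scale of its own for each gene) of the 8 measured integrin genes in every array on Ti-Ref (grey) and Ti-TMS-PEI (red), with mean ± SD in black. The dashed line parts the times, which may have been normalized separately and across which levels were not compared. At 24 h the arrays of ITGA2, ITGA10, ITGA11 and ITGB1 did not overlap between the surfaces.

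ITGA2, the α2 subunit of a receptor with preference for fibrillar collagen, had the largest change of the 8 genes at 24 h. After 24 h its log2 signal was 12.56, 12.68, 12.32 and 12.14 on Ti-TMS-PEI A to D. On Ti-Ref A to C it was 10.04, 10.04 and 9.89. All Ti-TMS-PEI arrays were higher by more than 2 log2 units than any Ti-Ref array. The means were 12.43 ± 0.24 (SD, n = 4) and 9.99 ± 0.09 (SD, n = 3), a log2 fold change of 2.44 (standard error, SE, 0.14, limma adjusted p = 0.000135). The 95% interval of the fold change ran from 4.34 to 6.73. By fold change ITGA2 ranked 13 among the 742 transcript clusters called higher at 24 h.

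After 4 h, ITGA2 had a log2 signal of 10.56, 10.56, 10.80 and 11.29 on Ti-TMS-PEI A to D and of 9.75, 10.02, 10.26 and 10.07 on Ti-Ref A to D. Here too the surfaces did not overlap, although the gap between the nearest arrays was narrower and Ti-TMS-PEI D stood highest. The means of 10.80 ± 0.34 (SD, n = 4) and 10.03 ± 0.21 (SD, n = 4) differed by a log2 fold change of 0.78 (SE 0.18), which is 1.71-fold. It did not pass the adjustment over all transcript clusters (limma adjusted p = 0.215; unadjusted p = 0.00156). With a trended and robust variance it did pass (limma adjusted p = 0.0138).

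ITGA10 encodes the α10 subunit, a part of a collagen receptor known from cartilage. Its log2 signal after 24 h was 6.33, 5.80, 6.30 and 5.77 on Ti-TMS-PEI A to D. It was 4.63, 4.49 and 4.18 on Ti-Ref A to C. The surfaces were apart in every array, and they also lay on different sides of the background level of 5.17, with 4 of 4 Ti-TMS-PEI arrays above it and 0 of 3 Ti-Ref arrays. The means were 6.05 ± 0.31 (SD, n = 4) and 4.43 ± 0.23 (SD, n = 3), a log2 fold change of 1.62 (SE 0.18, limma adjusted p = 0.00189), and the 95% interval of the fold change ran from 2.31 to 4.07. As the signal on Ti-Ref is within the background, a bound was also taken: with the Ti-Ref arrays raised to the background level, ITGA10 was at least 1.85-fold higher on Ti-TMS-PEI. At 4 h all 8 arrays were under the background level of 4.43, from 3.30 to 4.10, so a coating effect on ITGA10 was not detectable there.

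ITGA11, the α11 subunit of a type I collagen receptor of mesenchymal cells, was called as well. After 24 h its log2 signal was 13.61, 13.42, 12.99 and 13.23 on Ti-TMS-PEI A to D, against 12.23, 12.22 and 12.36 on Ti-Ref A to C. The lowest Ti-TMS-PEI array (C) was still above the highest Ti-Ref array (C). With means of 13.31 ± 0.27 (SD, n = 4) and 12.27 ± 0.08 (SD, n = 3), the log2 fold change was 1.04 (SE 0.15, limma adjusted p = 0.00437). After 4 h, its signal was 8.93 to 9.47 on Ti-TMS-PEI and 8.99 to 9.53 on Ti-Ref, so the surfaces lay over each other. The log2 fold change of 0.02 at 4 h had a 95% interval from -0.33 to 0.37, which leaves out an effect as large as the one at 24 h.

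ITGB1, the β1 subunit that all measured α subunits of this group pair with, showed at most a small difference. At 24 h its log2 signal was 16.20, 16.15, 16.16 and 16.05 on Ti-TMS-PEI A to D and 15.94, 15.94 and 15.90 on Ti-Ref A to C. The arrays did not overlap, but the means of 16.14 ± 0.06 (SD, n = 4) and 15.93 ± 0.02 (SD, n = 3) were only 1.16-fold apart. This missed the thresholds (log2 fold change 0.21, 95% interval 0.01 to 0.42, limma adjusted p = 0.184). With a trended and robust variance ITGB1 passed the adjustment (limma adjusted p = 0.011) but not the fold threshold. At 4 h the log2 fold change was 0.03 (95% interval -0.19 to 0.25, limma adjusted p = 0.950), and the arrays overlapped.

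Since each α subunit reaches the membrane with a β subunit, the difference between its log2 signal and that of ITGB1 was taken in each array. This compares how the genes differed between the surfaces and says nothing of their relative amounts. At 24 h the difference of ITGA2 to ITGB1 was -3.91 to -3.47 on Ti-TMS-PEI and -6.01 to -5.90 on Ti-Ref, so ITGA2 was 4.66-fold higher relative to ITGB1. ITGA11 was 1.78-fold higher relative to ITGB1, with no overlap of the arrays. For ITGA10 no such fold is given, since its Ti-Ref signal was within the background. For the laminin-binding subunits ITGA3, ITGA6 and ITGA7 the surfaces overlapped in this measure, with a difference of 0.06, 0.34 and 0.01 on the log2 scale, in this order. No test was made of these values.

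Among the laminin-binding subunits, ITGA6 came nearest to the thresholds. It encodes the α6 subunit, which binds laminins in epithelia and in many migrating cells. After 4 h its log2 signal was 8.07, 8.09, 8.03 and 8.02 on Ti-TMS-PEI A to D and 7.59, 7.55, 7.83 and 7.63 on Ti-Ref A to D. The Ti-TMS-PEI arrays were tightly grouped above all Ti-Ref arrays. The 1.32-fold difference was under the fold threshold and did not pass the adjustment (log2 fold change 0.40, SE 0.10, limma adjusted p = 0.263). After 24 h the signal was 9.99, 10.13, 9.66 and 10.33 on Ti-TMS-PEI and 9.58, 9.04 and 9.80 on Ti-Ref, with Ti-TMS-PEI C under Ti-Ref C. The log2 fold change at 24 h was 0.55 with a wide 95% interval from 0.09 to 1.02 (limma adjusted p = 0.136), and it was 0.34 without Ti-Ref B and 0.72 without Ti-Ref C. With a spread shared over all arrays ITGA6 passed the adjustment at 24 h (limma adjusted p = 0.0464) but not the fold threshold.

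ITGA3, the α3 subunit of a laminin receptor found in many adherent cell types, did not pass at either time. Its log2 signal at 24 h was 13.59 to 14.01 on Ti-TMS-PEI and 13.38 to 13.72 on Ti-Ref, and the groups overlapped. The log2 fold change was 0.27 at 24 h (95% interval -0.04 to 0.59, limma adjusted p = 0.268) and 0.07 at 4 h (95% interval -0.15 to 0.28). The interval at 24 h reached up to the fold threshold.

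ITGA7, the α7 subunit best known from skeletal muscle, was close to the background level. At 24 h it had 5.23 to 5.96 on Ti-TMS-PEI and 5.15 to 5.65 on Ti-Ref, with 1 of 7 arrays under the background level, and a log2 fold change of 0.23 (95% interval -0.22 to 0.67, limma adjusted p = 0.543). At 4 h, 3 of 8 arrays were under it, and Ti-Ref A stood apart at 5.47 from the other Ti-Ref arrays at 4.17 to 4.34. The log2 fold change was 0.08 at 4 h and 0.37 without Ti-Ref A, and neither passed (limma adjusted p = 0.951 and 0.458).

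ITGB4, the β4 subunit of hemidesmosomes, was under the background level in all 8 arrays of 4 h and all 7 arrays of 24 h. It ranged from 3.50 to 3.95 at 4 h and from 2.96 to 3.71 at 24 h. A coating effect on it was not detectable in these data.

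**Figure D2:**
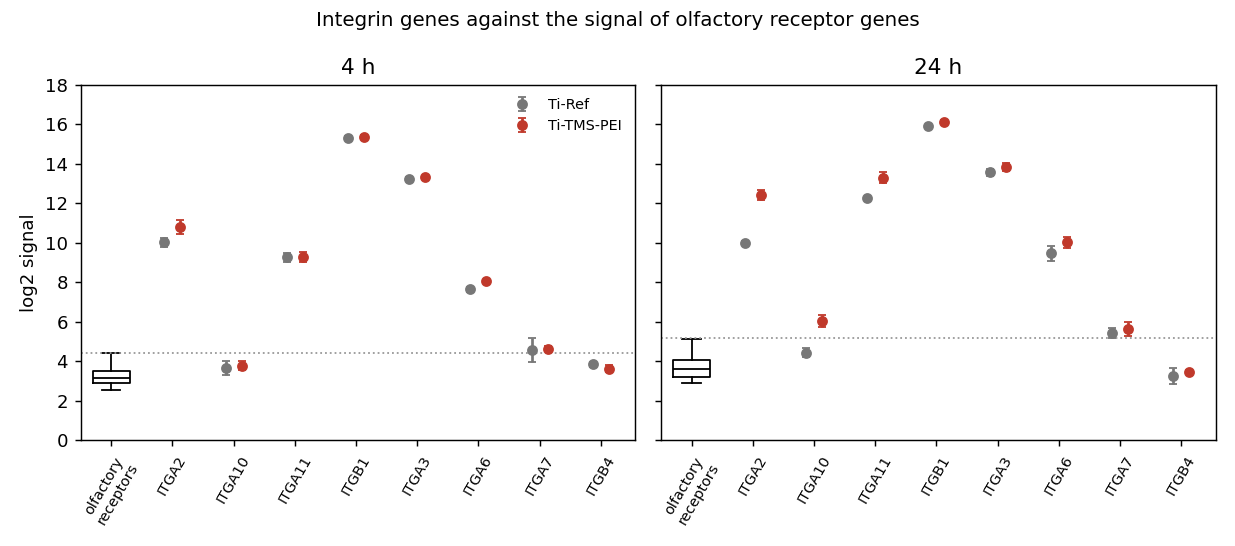
Mean log2 signal ± SD (vertical axis) of the 8 integrin genes on Ti-Ref (grey) and Ti-TMS-PEI (red), beside a box plot of the mean signals of 348 olfactory receptor genes (box, quartiles; whiskers, 5th to 95th percentile), with the 95th percentile dotted. ITGB4 lay under this level at both times, and ITGA10 was above it only on Ti-TMS-PEI at 24 h.

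At 4 h, none of the 8 genes was called by limma (0 of 8), where 0.0420% of all transcript clusters were called. Before adjustment, 2 of 8 genes, ITGA2 and ITGA6, were higher at p under 0.05, against 4.40% of all transcript clusters. These were also the 2 of 8 genes whose arrays lay higher on Ti-TMS-PEI with no overlap (2.98% of all transcript clusters), and 7 of 8 had a higher mean there (48.6%). The median log2 fold change at 4 h was 0.07 over the 8 genes and -0.0075 over all transcript clusters. At 24 h, 5 of 8 genes were higher at an unadjusted p under 0.05 (12.5% of all transcript clusters), 4 of 8 did not overlap (11.8%), and all 8 had a higher mean (49.5%). The counts of higher means include ITGA10 at 4 h and ITGB4 at 24 h, each under the background level in every array of that time. The RNA came from whole cultures, in which fewer cells of one kind and less RNA per cell cannot be told apart.

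An interaction term over all 15 arrays compared the coating effects of both times, which needs no common level. The effect was larger at 24 h than at 4 h for 3 of 8 genes, the same 3 that were called at 24 h, against 4.78% of all transcript clusters with a difference past the thresholds and 2.60% with one towards higher values at 24 h. For ITGA2, the log2 fold change was larger by 1.66 (SE 0.24, 95% interval 1.14 to 2.17, limma adjusted p = 0.00141). For ITGA10 it was larger by 1.502 (SE 0.27, limma adjusted p = 0.00489), with the limit that its signal was within the background in all 8 arrays of 4 h and in the 3 Ti-Ref arrays of 24 h. For ITGA11 it was larger by 1.02 (SE 0.22, limma adjusted p = 0.0148), a call that a replicate block removed (1.05, limma adjusted p = 0.0519). The other 5 genes had differences of 0.15 to 0.42 that did not pass (adjusted p from 0.315 to 0.884 from limma).

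**Figure D3:**
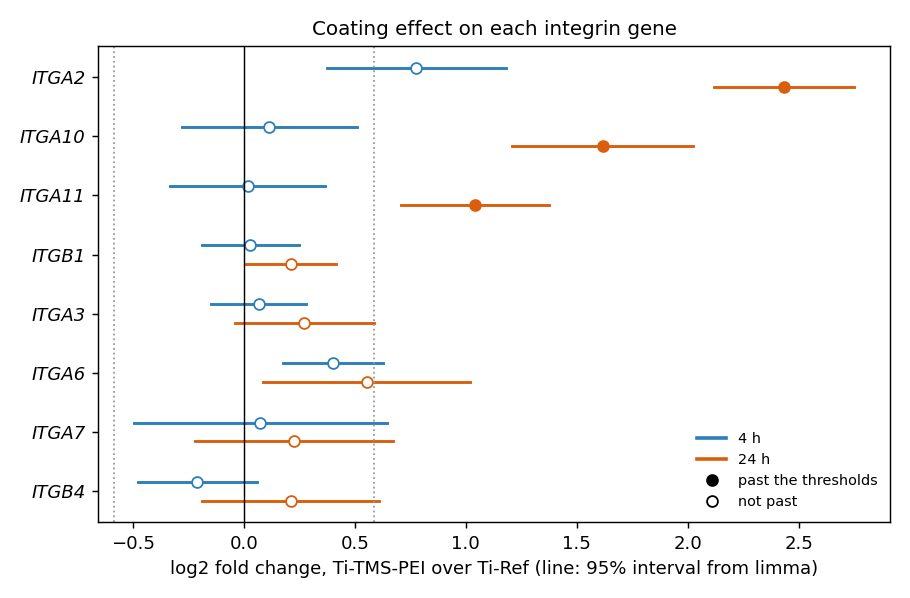
Log2 fold change of Ti-TMS-PEI over Ti-Ref (horizontal axis) with its 95% interval from limma for the 8 integrin genes at 4 h (blue) and 24 h (orange). Filled points passed the thresholds and dotted lines mark a 1.5-fold change. ITGA2, ITGA10 and ITGA11 at 24 h are the filled points, at 2.44, 1.62 and 1.04, and the value of ITGA10 is taken against a Ti-Ref signal within the background.

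Across all 15 arrays, after the mean of each time had been subtracted, the 3 called genes followed each other with Pearson's r of 0.87 for ITGA2 and ITGA10, 0.863 for ITGA2 and ITGA11 and 0.868 for ITGA10 and ITGA11. These values hold the shared difference between the surfaces. After each group's own mean had been subtracted, r was 0.0919, 0.453 and 0.334 in the same order. The genes most like ITGA2 over the 15 arrays were CDKN1A (r of 0.981), PTGS2 (0.98) and TNFRSF11B (0.966), with log2 fold changes of 2.51, 3.51 and 0.83 at 24 h. Those most like ITGA10 were VRK3 (0.95), HSD17B2 (0.934) and DUSP23 (0.93), and those most like ITGA11 were P4HA2 (0.949), AKR1C2 (0.946) and RHOQ (0.941). Within groups, r of these 9 pairs was between 0.54 and 0.783. These pairs were picked by r over the same arrays, so their r within groups cannot be set against that of the 3 integrins. The values are descriptions of arrays that share the surface contrast.

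Of 17 other integrin subunits measured, 2 were called higher and 1 lower at 24 h (3.46% and 2.69% of all transcript clusters), with a median log2 fold change of 0.11. ITGB8, a β subunit whose receptor activates latent TGF-β, averaged 8.61 ± 0.18 (SD, n = 4) in the Ti-TMS-PEI arrays against 7.76 ± 0.07 (SD, n = 3) in the Ti-Ref arrays (log2 fold change 0.86, limma adjusted p = 0.00418). ITGA8, an α subunit that recognises RGD sequences, rose with a wide spread from 5.46 ± 0.45 (SD, n = 3) to 7.46 ± 1.02 (SD, n = 4), a log2 difference of 2.003 (limma adjusted p = 0.0342). ITGB3, the β subunit of the vitronectin receptor, was lower, with a log2 fold change of -0.89 and an limma adjusted p = 0.0127. The call of ITGA8 was lost without Ti-Ref A, B or C or Ti-TMS-PEI B (limma adjusted p from 0.0689 to 0.114), and that of ITGB3 without Ti-Ref A (limma adjusted p = 0.0519) and with a replicate block (limma adjusted p = 0.0602). At 4 h 0 of 17 were called by limma and 2 had an unadjusted p under 0.05. The smallest unadjusted p values were those of ITGA4 and ITGA9, with log2 fold changes of -0.42 and 0.54 (limma adjusted p = 0.244 and 0.437). The means of ITGA9 at 4 h were under the background level on both surfaces.

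The ligands were looked at next. Of the collagen chains that these receptors bind, 13 of 14 were measured. At 24 h 2 of 13 were called higher, against 3.46% of all transcript clusters, with a median log2 fold change of 0.24. Both encode type IV collagen, the network collagen of basement membranes: COL4A2 rose 2.20-fold and COL4A1 2.01-fold (limma adjusted p = 0.0199 and 0.0300). Without Ti-Ref A or C neither was called, and COL4A1 also not without Ti-Ref B or Ti-TMS-PEI C (limma adjusted p from 0.0618 to 0.111 in these fits). The type I collagen chains COL1A1 and COL1A2 had log2 fold changes of 0.11 and 0.16 (95% intervals -0.13 to 0.35 and -0.08 to 0.39) and did not pass. Of the laminin chains, 7 of 11 were measured, all 7 with a higher mean on Ti-TMS-PEI at 24 h and a median log2 fold change of 0.41. Only LAMA4, the α4 chain of laminins of mesenchyme and vessels, was called among these 7, averaging 12.37 ± 0.30 (SD, n = 4) against 11.07 ± 0.47 (SD, n = 3) on the uncoated chips (log2 fold change 1.30, limma adjusted p = 0.0108). After 4 h 0 of 13 collagen chains and 0 of 7 laminin chains were called by limma, with 1 and 0 at an unadjusted p under 0.05. The smallest unadjusted p values were those of COL4A2 and COL6A1, with log2 fold changes of 0.48 and 0.24 (limma adjusted p = 0.447 and 0.548), and of LAMC3 and LAMA1, with -0.30 and 0.29 (limma adjusted p = 0.620 and 0.750).

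Receptors of collagen and laminin outside the integrin family were measured for 6 of 8 genes. At 24 h 1 of 6 was called higher, against 3.46% of all transcript clusters. This was DDR1, a receptor tyrosine kinase that collagen activates, averaging 9.13 ± 0.33 (SD, n = 4) on the coating against 8.06 ± 0.23 (SD, n = 3) on Ti-Ref (log2 fold change 1.07, limma adjusted p = 0.0105). Its relative DDR2 had a log2 fold change of 0.11 (95% interval -0.14 to 0.35, limma adjusted p = 0.611). The list's median at 24 h was 0.28. At 4 h 0 of 6 were called and 1 had an unadjusted p under 0.05. LAIR1 and MRC2 had log2 fold changes of 0.57 and 0.24 (limma adjusted p = 0.463 and 0.754), and the means of LAIR1 were under the background level on both surfaces.

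Tetraspanins hold laminin-binding integrins in membrane domains, and 7 of 7 were measured. At 24 h 1 of 7, CD9, was called higher, against 3.46% of all transcript clusters, and the median log2 fold change of the 7 was 0.33. CD9 was 1.52-fold higher and thus just past the fold threshold (limma adjusted p = 0.0227). It was not called without Ti-Ref A, B or C or Ti-TMS-PEI A or B, nor with arrays centred on their medians or quantile-normalized again (log2 fold change 0.52 to 0.67 in these fits). Of 6 hemidesmosome partners of ITGB4, 5 were measured and 0 were called in limma. At 24 h 2 of 5, both higher, had an unadjusted p under 0.05, where 12.5% of all transcript clusters were higher at such a p. The linker PLEC and the tetraspanin CD151 had log2 fold changes of 0.51 and 0.33 at 24 h (limma adjusted p = 0.0154 and 0.0941), with a list median of 0.06. At 4 h 0 genes of both lists were called by limma, with 1 hemidesmosome partner and 0 tetraspanins at an unadjusted p under 0.05. The smallest unadjusted p values were those of DST (log2 fold change -0.41) and PLEC (-0.15) among the hemidesmosome partners and of TSPAN4 (-0.08) and CD81 (-0.07) among the tetraspanins (adjusted p from 0.415 to 0.880 from limma).

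Proteins that bind integrin tails or signal from them were measured for 17 of 20 genes. At 24 h 0 of 17 were called by limma, and the median log2 fold change was 0.09. An unadjusted p under 0.05 was found for 5 of 17 in either direction. The share of all transcript clusters was taken only for higher values (12.5%), so this count cannot be set against it. The adaptor BCAR1 (0.51) and ITGB1BP1 (-0.51), a protein that binds the tail of ITGB1, passed the adjustment but not the fold threshold (limma adjusted p = 0.0170 and 0.0458). The kinases ILK and PTK2 and the actin linker VCL had log2 fold changes of 0.12, 0.41 and 0.08 at 24 h and did not pass. At 4 h 0 of 17 were called and 2 had an unadjusted p under 0.05, BCAR1 and LIMS2. These 2 genes had log2 fold changes of 0.50 and -0.41 (limma adjusted p = 0.298 and 0.390).

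**Figure D4:**
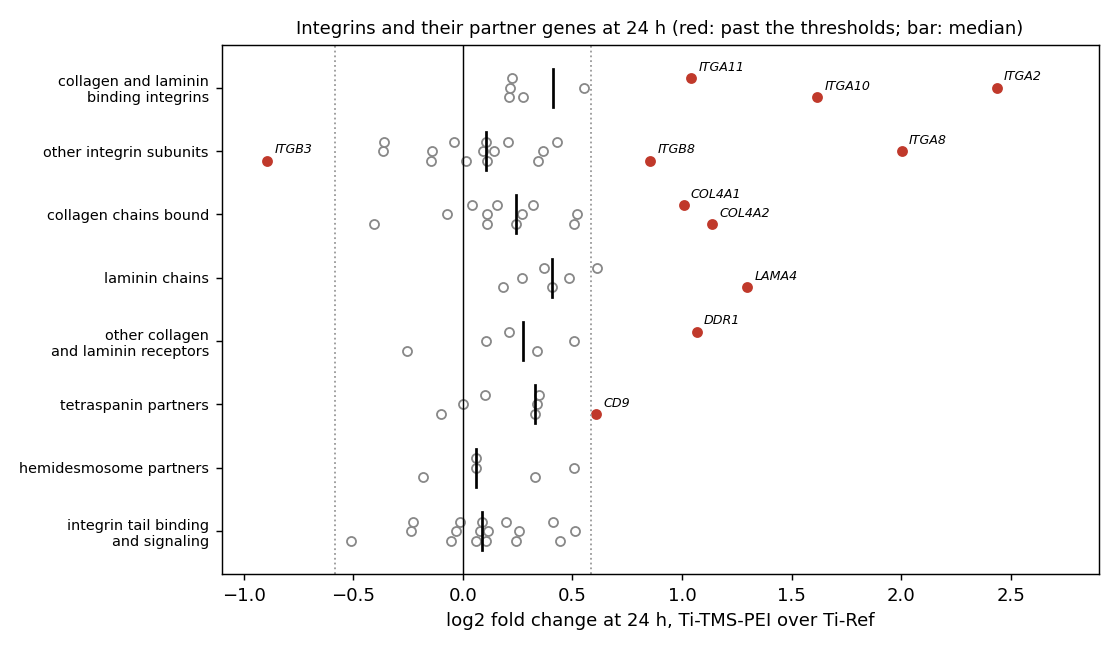
Log2 fold change of Ti-TMS-PEI over Ti-Ref at 24 h (horizontal axis) for the 8 measured integrin genes and for each list of partner genes (vertical axis). Each point is a gene, red points passed the thresholds and are named, bars are medians and dotted lines mark a 1.5-fold change. The medians lay between 0.06 for the hemidesmosome partners and 0.41 for the integrins and the laminin chains.

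Markers of other cell types were read beside these results. Of 6 epithelial markers, EPCAM, CDH1, KRT5 and KRT14 were under the background level at both times, while KRT18 rose 1.58-fold at 24 h (limma adjusted p = 0.00801, and 0.0531 with a replicate block). The summed log2 signal of the 6 was 37.15 to 37.56 on Ti-TMS-PEI and 36.39 to 37.85 on Ti-Ref at 24 h. Of 5 endothelial markers, CDH5 rose 1.71-fold at 24 h (limma adjusted p = 0.0249, and 0.0563 to 0.0798 without Ti-Ref B or C or Ti-TMS-PEI A or B) and PECAM1 and KDR were under the background level. VWF and TEK had log2 fold changes of -0.16 and 0.04 at 24 h and were not called (limma adjusted p = 0.695 and 0.94). The summed signal of the 5 was 25.77 to 27.33 on Ti-TMS-PEI and 25.14 to 25.65 on Ti-Ref at 24 h. The sum includes CDH5, with a log2 fold change of 0.77, and PECAM1 (0.35) and KDR (0.14), which were under the background level. It was not read as a shift of the list. Of all transcript clusters, 3.46% were called higher at 24 h. No gene was called at 24 h among 7 mesenchymal and bone markers, 6 skeletal muscle markers or 5 blood markers, and none at 4 h in any marker list. In limma, 0, 1 and 1 of these genes had an unadjusted p under 0.05 at 24 h, in this order, and at 4 h 0 mesenchymal, 1 epithelial, 0 endothelial, 1 muscle and 0 blood markers had one. The members of the uncalled lists with the smallest p at 24 h were SPARC and COL1A2 (log2 fold change 0.16 each), MYH3 and CKM (-0.32 and 0.22) and PTPRC and HBB (-0.58 and -0.28). At 4 h they were COL1A1 and FN1 (-0.14 and -0.12), KRT18 and CDH1 (0.26 and -0.54), VWF and TEK (0.39 and 0.46), CKM and DES (0.28 and -0.26) and CD14 and HBB (0.36 and 0.26). Of these genes, MYH3, CKM and HBB at 24 h and CDH1, TEK, CKM and HBB at 4 h had means under the background level on both surfaces. ACTA1 of the muscle list was well above the background level at 24 h, with a mean of 12.85 on both surfaces. The part of other cell types in the integrin results was not tested.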

How the data were processed

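Clariom S arrays held RNA of MG-63 cells from coated (Ti-TMS-PEI) or bare (Ti-Ref) chips, with 4 and 4 arrays at 4 h and 4 and 3 at 24 h, grouped by the labels. The authors summarized the scans with SST-RMA (quantile-normalized, background-adjusted) in the Transcriptome Analysis Console and deposited log2 signals per transcript cluster. They left out 1 Ti-Ref array for its labelling controls. The genome build is not given in the sources used here. Of 21448 transcript clusters, 17709 have 1 gene symbol in the platform annotation. Arrays have no read depth, so their number limits the precision, and dim signals are compressed towards the background.

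Each time was fitted in R 4.3.3 with limma 3.58.1 (lmFit, eBayes) with the surface as the only term, over all transcript clusters with Benjamini-Hochberg adjustment. Calls needed a fold change over 1.5, p under 0.05 and adjusted p under 0.05. In the lists beside this group, counts at an unadjusted p under 0.05 take both directions. No share of all transcript clusters was taken for both directions. The interaction used all 15 arrays. The fits were tested on simulated data. Tables were handled with pandas 2.3.3 and figures drawn with matplotlib 3.10.9. Genes named were all measured integrins of the group, in each other list (other integrin subunits, collagen and laminin chains, other collagen and laminin receptors, tetraspanins, hemidesmosome partners, integrin tail binding and signaling genes, and markers of mesenchymal and bone, epithelial, endothelial, skeletal muscle and blood cells) up to 4 called members or the 2 with the smallest p, and the 3 genes most like each called integrin. PLEC, CD151, BCAR1 and ITGB1BP1 at 24 h were named by the smallest p. COL1A1, COL1A2, DDR2, ILK, PTK2, VCL, VIM, SPARC, RUNX2 and ALPL were added for context with their values known. So were KRT8, VWF, TEK and ACTA1 at 24 h and the markers under the background level. The genes and lists were chosen with earlier results of these data known. Alternatives were a replicate block, a trended and robust variance, array weights, a shared spread, a filter that left out the dimmest 25% of transcript clusters, centring on medians, a second quantile normalization, changed thresholds, only 1 transcript cluster for a gene, and omission of every array in turn. Promoters were from RefSeq (GRCh38.p14).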

Additional observations from a re-analysis of the deposited data

Results flagged for a closer look

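The coating effect of 3 integrin genes differed between the times in the test over all 15 arrays. The log2 fold change of Ti-TMS-PEI over Ti-Ref was larger at 24 h than at 4 h by 1.66 for ITGA2 (adjusted p = 0.00141 from limma), by 1.502 for ITGA10 (adjusted p = 0.00489 from limma) and by 1.02 for ITGA11 (adjusted p = 0.0148 from limma). The value of ITGA10 has the limit that all 8 arrays of 4 h and the 3 Ti-Ref arrays of 24 h were within the background. The call of ITGA11 was lost with a replicate block (1.05, adjusted p = 0.0519 from limma). All 4 Ti-TMS-PEI arrays of 24 h were above all 3 Ti-Ref arrays for each of these genes. At 4 h this held for ITGA2 and not for ITGA10 or ITGA11.

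For ITGA7, 1 sample stood far from the others of its group: Ti-Ref A at 4 h had a log2 signal of 5.47, while the other 3 arrays had 4.17 to 4.34, so that the gap was 0.869 of the whole range. It was the only such case in 24 sets of 4 arrays, and chance gives about 1 in 20. The cause was not tested.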

How the results depend on the processing

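At 24 h the count of 3 called integrin genes was the same under all 18 alternatives, with log2 fold changes of 2.35 to 2.53 for ITGA2, 1.49 to 1.72 for ITGA10 and 0.94 to 1.15 for ITGA11, and a highest adjusted p of 0.00433, 0.0173 and 0.0366 from limma, in this order. The changed thresholds among the alternatives were all looser, so they could not remove a call of any gene. At 4 h the count was 0, or 1 with a trended and robust variance (ITGA2, adjusted p = 0.0138 from limma). Without single arrays, uncalled values changed sign at 4 h for ITGA7 (-0.061 to 0.37), ITGA10 (-0.0075 to 0.23), ITGA11 (-0.076 to 0.14) and ITGB1 (-0.0067 to 0.067), and in the interaction for ITGA6 (-0.065 to 0.32) and ITGA7 (-0.15 to 0.29). At 24 h, leaving out single arrays moved the uncalled log2 fold changes of ITGA3 (0.18 to 0.36), ITGA6 (0.34 to 0.72), ITGA7 (0.088 to 0.37) and ITGB4 (0.068 to 0.44). The cause was not tested. Arrays with the same letter did not deviate together (correlation of residuals from -0.0711 to 0.0462). This is a coarse check over all transcript clusters and cannot exclude that a letter stands for a shared experiment. With a replicate block, the calls were 0 at 4 h, 3 at 24 h and 2 in the interaction, where ITGA11 had 1.05 (adjusted p = 0.0519 from limma). Of the 10 genes of the other lists called at 24 h, 3 (ITGB8, LAMA4 and DDR1) were called under all 18 alternatives. Over all transcript clusters, calls ranged from 0 to 83 at 4 h, 851 to 2020 at 24 h and 578 to 1487 in the interaction (9, 1319 and 1026 as reported). With arrays centred on their medians, 43.5% of the calls at 24 h were higher on Ti-TMS-PEI in place of 56.3%, and 35.6% in place of 54.3% in the interaction. The filter on dim signals gave no value for ITGA10 at 4 h and for ITGB4 at 24 h and in the interaction. Low signal limits ITGB4 at both times, ITGA10 at 4 h and on Ti-Ref at 24 h, and ITGA7 in some arrays of each time.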
